A study of Mus musculus with 47 samples.

Results

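The meiotic and piRNA pathway genes are 39 of the 23416 genes counted, taken from a list of genes active earlier in male germ cell development than the late spermatid stage, each listed in the count tables of all 10 libraries. By role they comprised 7 synaptonemal complex genes, 10 genes of recombination and axis surveillance, 4 meiotic cohesins, 12 genes of the piRNA pathway and germ granules, 3 genes of spermatogonia and meiotic entry, and 3 late meiotic and postmeiotic genes. The comparisons asked whether transcripts of these genes moved with or against those of 50 late spermatid genes in the spermatozoa of males whose fathers lacked Scml2.

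RNA-seq was made from spermatozoa and liver of male mice aged 8 to 12 weeks. The fathers of Ctrl-F1 males were wild-type C57BL/6 mice and those of KO-F1 males their Scml2-KO littermates, both used through intracytoplasmic sperm injection (ICSI), and both carried the background label BDF2. KO-F2 males came from natural mating of KO-F1 males with C57BL/6 females, carried the label BDF3, and have sequencing run names unlike those of the F1 sperm libraries. Scml2, which encodes a germline Polycomb protein, lies on the X chromosome, so sons of Scml2-KO males take their only copy from the mother, and neither KO-F1 nor KO-F2 males are knockouts themselves. Each group had 2 libraries, and no F2 control was analysed here. The spermatozoa were motile cells recovered by swim-up from the cauda epididymis, and their RNA was amplified as cDNA before library preparation.

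In prophase of meiosis, the synaptonemal complex zips homologous chromosomes together along axes built on meiotic cohesins, while programmed double-strand breaks are repaired by recombination. The piRNA pathway loads small RNAs into PIWI proteins in germ granules, where Tudor domain proteins and RNA helicases gather, and silences transposons. Spermatozoa are transcriptionally quiet, so transcripts of these genes that they carry are remnants of earlier stages. Late spermatid genes are mostly transcribed closer to the end of spermatogenesis, but the stages of both lists overlap. Piwil1 and Brdt of the earlier list, for example, are also active in spermatids. RNA of other cells in a library can add counts too, and the source of the counts was not tested. A lower level in a bulk library can reflect fewer cells that hold a transcript or less of it per cell, and these cannot be told apart here.

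Total counts were 1503733 to 2778171 in the 4 F1 sperm libraries, 8384266 and 11462105 in the KO-F2 sperm libraries and 11339729 to 14278900 in the liver. Ribosomal Rn45s took 3.52% to 28.7% of sperm counts. Scml2 had 0 to 18 counts in sperm and 0 in every liver library. As none of these males were knockouts, its counts could not check the labels. The 50 late spermatid genes took 5.30% to 18.4% of sperm counts. The 6 hepatocyte markers summed to at most 2.52 CPM, counts scaled to a library total of 1000000, in sperm. Depth, sequencing run, background label, mode of conception and generation all separate KO-F2 from F1 spermatozoa and cannot be told apart.

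The promoters of 4 genes on which the results below turn are shown first, as the 250 bases before the RefSeq transcription start in GRCm38.p6, read 5′ to 3′ on the coding strand. They are the synaptonemal complex genes with the highest normalized counts before correction for length (Syce2 and Syce1), the axis protein gene Sycp3, and Mael of the piRNA pathway. Capitals mark CACGTG, a form of the E-box hexamer, which reads the same on both strands. Other E-box forms were not searched. Syce2 (chr8:84871861-84872110, plus strand, the first of its annotated starts) and Syce1 (chr7:140787855-140788104, minus strand) hold no CACGTG in these windows. Sycp3 (chr10:88459337-88459586, plus strand) holds a pair beginning 64 and 43 bases before the start. Mael (chr1:166238745-166238994, minus strand) holds 1 beginning 223 bases before it.
Syce2: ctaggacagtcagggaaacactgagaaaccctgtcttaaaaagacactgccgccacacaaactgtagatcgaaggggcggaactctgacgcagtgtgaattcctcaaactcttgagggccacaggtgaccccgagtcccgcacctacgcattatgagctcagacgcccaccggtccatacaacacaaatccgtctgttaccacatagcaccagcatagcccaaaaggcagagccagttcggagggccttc
Syce1: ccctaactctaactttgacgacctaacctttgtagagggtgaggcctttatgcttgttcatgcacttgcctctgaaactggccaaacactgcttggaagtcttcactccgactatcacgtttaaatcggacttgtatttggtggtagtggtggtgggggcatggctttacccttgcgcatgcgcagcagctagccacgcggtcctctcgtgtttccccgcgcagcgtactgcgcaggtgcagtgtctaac
Sycp3: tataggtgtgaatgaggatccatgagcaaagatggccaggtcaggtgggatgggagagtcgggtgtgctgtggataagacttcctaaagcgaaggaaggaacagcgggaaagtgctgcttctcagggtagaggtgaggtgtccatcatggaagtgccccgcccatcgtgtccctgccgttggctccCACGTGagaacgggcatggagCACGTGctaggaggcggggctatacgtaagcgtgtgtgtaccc
Mael: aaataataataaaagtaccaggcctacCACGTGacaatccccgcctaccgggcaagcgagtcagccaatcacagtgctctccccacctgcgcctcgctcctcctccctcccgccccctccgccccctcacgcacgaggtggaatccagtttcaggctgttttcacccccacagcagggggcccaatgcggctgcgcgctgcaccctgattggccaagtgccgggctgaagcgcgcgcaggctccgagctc

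Among the 32 genes of the list with a RefSeq promoter, 14 held CACGTG in at least 1 such window, against 1854 of 27025 genes (6.86%) overall and 0 of 42 late spermatid genes. Of other meiotic genes 4 of 22 (18.2%) held it, and of other piRNA genes 2 of 13 (15.4%). The 14 genes of the list included 4 of 7 synaptonemal complex genes and 6 of 10 piRNA pathway genes. Syce2 counted among them through its second annotated start, whose window also held GGCGGGAA, an E2F type motif. That motif stood in 5 of the 32 genes (15.6%) and in 3 of 22 other meiotic genes (13.6%), against 2.13% of all genes. The cAMP response element TGACGTCA stood in none of the 32 and in 1.77% of all genes. Both strands were searched, no matches overlapped, and 6 of the 32 genes had several windows, which gave them more letters to match in.

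Transcript levels were uneven. Syce2, which encodes a central element protein of the synaptonemal complex, held 62.7% of all counts of the 39 genes in spermatozoa and between 43.1% and 69.1% in single libraries. Per kilobase of the longest RefSeq transcript, the Ctrl-F1 mean of TMM-normalized CPM was 452 for Syce2, 62.0 for Mael, 54.9 for Syce3, 48.8 for Syce1, 17.1 for Sycp3 and 10.2 for Tdrd6. Rad21l had no count in any of the 10 libraries. Tex11, Tex12 and Sohlh1 had at most 3 counts in every sperm library, and 21 genes had more than 3 in each of them. In 7 of the genes exons share bases with a neighbour. Sycp3 overlaps Chpt1, Tex12 overlaps Il18, Stag3 overlaps Gal3st4, Ccna1 overlaps 4931419H13Rik, Hormad1 overlaps Gm40097 and Msh5 overlaps Gm52318, each on the opposite strand. Meiob overlaps Hagh on the same strand. Counts of these 7 are therefore uncertain.

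In KO-F1 spermatozoa, 21 of the 22 genes that passed the count filter were lower than in Ctrl-F1 under TMM scaling, and 7 of them under scaling to the late spermatid list. With TMM 49 of the 50 late spermatid genes were lower too, so both lists lay on the same side of Ctrl-F1. The paper had reported Prm1, Prm2, Prm3 and Tnp2 of the late list as lower in KO-F1 sperm. Both lists were chosen with earlier results of these data known, so these counts are a description. Among all 10785 genes tested 49.5% were lower and 50.5% higher. The median log2 fold change was -1.41 for the 22 genes, -1.78 for the late spermatid genes and 0.02 for all genes tested. A gene was called when edgeR's quasi-likelihood test gave a Benjamini-Hochberg adjusted p under 0.01 and its level differed 2 times or more. By that rule 0 of the 22 were called, and 0% of all genes tested. Across all genes 2105 had an unadjusted p under 0.05, while DESeq2 called 390 (2.32%), none of them of the list. Unadjusted p was under 0.05 with lower levels for 8 of the 22, against 10.6% of all genes, and with higher levels for 0, against 8.88%. The groups did not overlap, with both KO-F1 libraries lower, for 16 of the 22, against 25.4% of all genes.

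Part of that count follows from the filter. Piwil1, Piwil2, Smc1b, Tdrd5, Tdrd9, Tex101 and Ccna1 passed the filter through the Ctrl-F1 libraries only, a route by which 95.7% of genes were lower. Of the 13 genes over the count minimum in every library, 13 were lower with a median of -1.35, against 52.1% lower and a median of -0.07 over the 6504 genes of that kind. One library turned the sign of 5 of the 22. Without Ctrl-F1 replicate 1, Syce3 was at 0.05 and Stag3 at 0.64, and 17 of 21 genes were lower. Mlh3 was at 0.47 without Ctrl-F1 replicate 2, and Tdrd5 was at 0.05 without KO-F1 replicate 1. Hormad2, near 0 with all libraries, turned to -0.05 without Ctrl-F1 replicate 2 and to -0.09 without KO-F1 replicate 2.

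**Figure D1:**
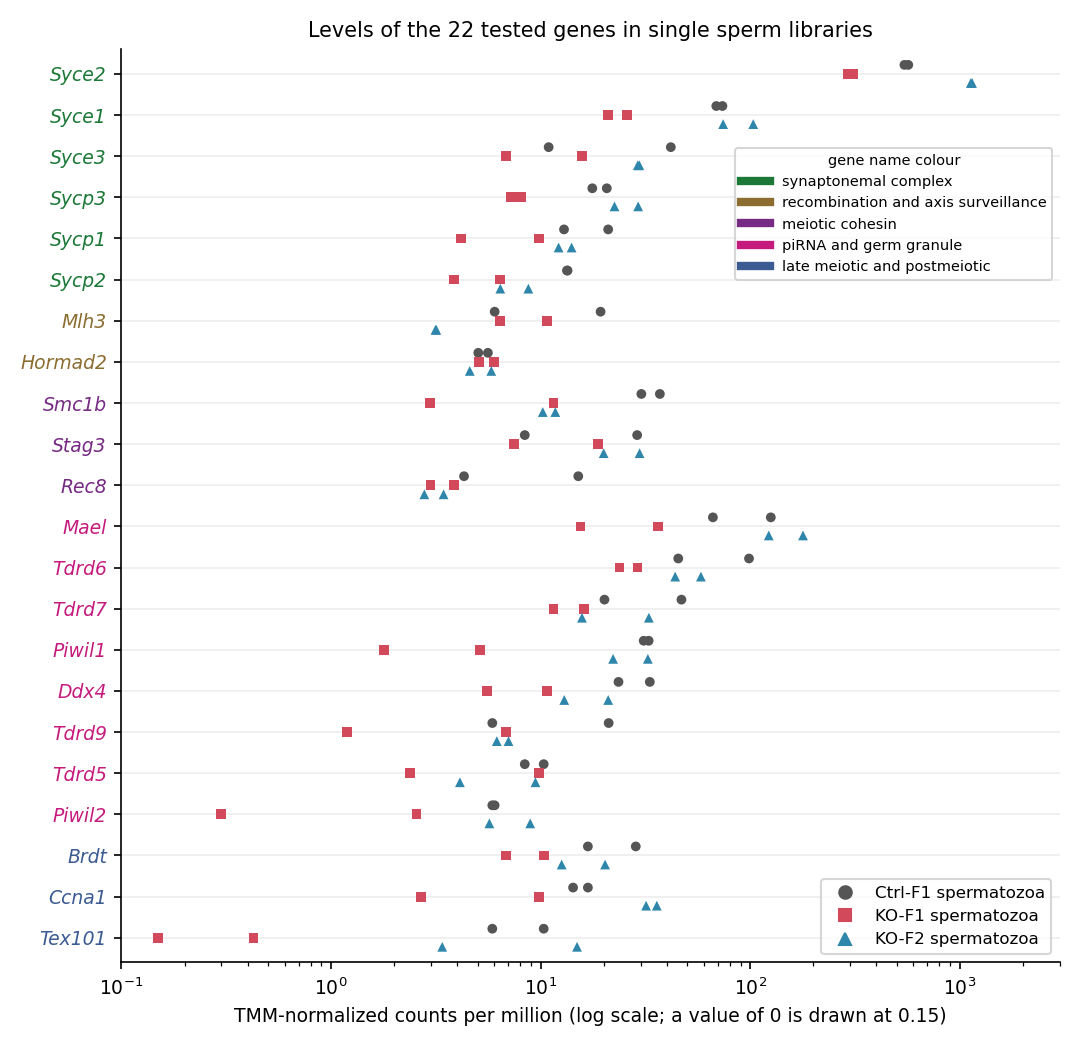
TMM-normalized CPM on a log axis for the 22 genes tested between KO-F1 and Ctrl-F1 spermatozoa, 1 point per library, with gene names coloured by role. Both KO-F1 libraries lie below both Ctrl-F1 libraries for 16 of the 22 genes, while Syce2 is highest in KO-F2 at 1129 and 1145.

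Of the synaptonemal complex genes, 6 passed the filter and 6 were lower in KO-F1 under TMM, with a median of -1.31, while each of the 6 was higher under scaling to the late spermatid list. Syce2 had 1263 and 676 counts in the controls and 1042 and 686 in KO-F1, or 544 and 568 normalized CPM against 310 and 293. Both KO-F1 libraries were below both controls, and the means were 556 ± 16.7 (SD, n = 2) and 301 ± 12.5. The log2 fold change was -0.91 (SE 0.37, unadjusted p = 0.0405, adjusted p = 0.236, edgeR), the smallest difference of the 6. Syce1, another central element gene, had 73.7 and 68.9 normalized CPM in the controls and 25.9 and 20.9 in KO-F1. The libraries were again separate, at -1.63 (SE 0.48, unadjusted p = 0.00983, adjusted p = 0.151, edgeR).

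Sycp3, a structural protein of the chromosome axis whose promoter holds the E-box pair shown above, had 20.7 and 17.6 normalized CPM in the controls and 8.04 and 7.25 in KO-F1. Its log2 fold change was -1.35 (SE 0.81, adjusted p = 0.411, edgeR), without overlap between the groups. Sycp1, the transverse filament protein, and Sycp2, another axis component, were at -1.28 and -1.40 with neither group overlapping. Syce3 did overlap, at 41.8 and 10.9 normalized CPM in the controls and 15.8 and 6.82 in KO-F1, a difference of -1.28 (SE 0.87, adjusted p = 0.466, edgeR). Tex12 stayed below the filter, with 1 count among the F1 sperm libraries.

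All 8 piRNA pathway genes tested of the 12 were lower in KO-F1 under TMM, with a median of -1.81, and Tdrd5, Tdrd6 and Tdrd7 turned to higher under scaling to the late spermatid list. Piwil1 encodes the PIWI protein of pachytene spermatocytes and round spermatids. It had 72 and 39 counts in the controls and 6 and 12 in KO-F1, or 31.04 and 32.8 normalized CPM against 1.79 and 5.12. Both KO-F1 values were below both controls, at -3.23 (SE 0.85, unadjusted p = 0.00529, adjusted p = 0.140, edgeR). Mael, which acts in transposon silencing, had 291 and 79 counts in the controls and 52 and 85 in KO-F1, or 125 and 66.4 normalized CPM against 15.5 and 36.3. The groups were separate although the controls differed among themselves, at -1.92 (SE 0.61, unadjusted p = 0.0132, adjusted p = 0.158, edgeR).

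Tdrd6, a Tudor domain protein of the chromatoid body, had 98.7 and 45.4 normalized CPM in the controls and 23.8 and 29.0 in KO-F1. The log2 fold change was -1.49 (SE 0.56, unadjusted p = 0.0292, adjusted p = 0.205, edgeR). Ddx4, the germ cell RNA helicase also called Vasa, had 33.2 and 23.5 normalized CPM in the controls and 10.7 and 5.54 in KO-F1. It was at -1.83 (SE 0.74, unadjusted p = 0.0392, adjusted p = 0.232, edgeR), and neither gene overlapped between groups. Piwil2 and Tdrd7 were lower without overlap, at -2.06 and -1.33, and Tdrd5 and Tdrd9 were at -0.64 and -1.80 with overlap. Tdrd1, Mov10l1, Asz1 and Dazl were under the filter in this comparison. Tdrd1 had 28 and 4 counts in Ctrl-F1 against 4 and 8 in KO-F1, and Mov10l1 had 19 and 5 against 3 and 3. Asz1 had 2 and 1 against 0 and 0. Dazl, an RNA-binding translational regulator, had none in the controls and 0 and 7 in KO-F1.

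Of the meiotic cohesins, Smc1b had 86 and 36 counts in the controls and 10 and 27 in KO-F1, or 37.1 and 30.3 normalized CPM against 2.98 and 11.5. Both KO-F1 libraries were below the controls, at -2.24 (SE 0.84, unadjusted p = 0.0280, adjusted p = 0.203, edgeR). Rec8, the meiotic kleisin subunit, was at -1.48 (SE 1.23) without overlap, and Stag3 was at -0.56 (SE 0.91) with 28.9 and 8.40 normalized CPM in the controls and 7.44 and 18.8 in KO-F1. Only these 3 of the 4 cohesins had enough counts to test, Rad21l being the other.

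Recombination genes were mostly too low to test, with 2 of 10 over the filter. Hormad2, which marks unsynapsed axes, had 5.60 and 5.04 normalized CPM in the controls and 5.06 and 5.97 in KO-F1, and passed through the KO-F1 libraries only. At 0.02 (SE 1.20) it was the single gene of the 22 not lower. Mlh3, a mismatch repair protein of crossover sites, was at -0.56 (SE 1.01) with 6.04 and 19.3 normalized CPM in the controls and 10.7 and 6.40 in KO-F1. Tex15 had 32 and 1 counts in the controls and 0 and 2 in KO-F1, a summed ratio by library totals of 20.4 (95% counting interval 5.22 to 176) that rests on 1 control library. Hormad1 had 11 and 3 counts against 0 and 1, a ratio of 17.3 (95% counting interval 2.64 to 732). These intervals cover counting error only.

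Spo11, which makes the meiotic double-strand breaks, had 5 and 0 counts in the controls and 3 and 6 in KO-F1. Msh5 had 5 and 0 against 14 and 4. Dmc1, Msh4, Meiob and Tex11 had at most 5 counts in each of the 4 F1 sperm libraries. No gene of spermatogonia and meiotic entry could be tested. Stra8, the retinoic acid target of meiotic entry, had 0 and 1 counts in the controls and 0 and 8 in KO-F1, Zbtb16 had 1 and 12 against 0 and 2, and Sohlh1 had none.

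The 3 late meiotic and postmeiotic genes were lower without overlap under TMM, of which Brdt and Ccna1 turned to higher under scaling to the late spermatid list. Tex101, a germ cell surface protein, had 24 and 7 counts in the controls and 0 and 1 in KO-F1, a summed ratio by library totals of 38.4 (95% counting interval 6.39 to 1563). The fitted log2 fold change was -5.09 (SE 1.80, unadjusted p = 0.0221, adjusted p = 0.185, edgeR). Brdt, a bromodomain protein of spermatocytes and spermatids, had 28.5 and 16.8 normalized CPM in the controls and 10.4 and 6.82 in KO-F1, at -1.43 (SE 0.78, adjusted p = 0.364, edgeR). Ccna1, the male germline A-type cyclin, had 16.8 and 14.3 normalized CPM in the controls and 2.68 and 9.81 in KO-F1, at -1.33 (SE 1.02, adjusted p = 0.521, edgeR).

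Other genes of the same pathways were fewer in the tested set. Of 30 other meiotic genes 7 were tested and 5 were lower, with a median of -1.47. Hspa2, a testis chaperone needed in meiosis, had 310 and 155 normalized CPM in the controls and 65.2 and 70.8 in KO-F1, at -1.81 (adjusted p = 0.140, edgeR). Of 16 other piRNA genes 6 were tested and 4 were lower, with a median of -1.77. Pld6, a mitochondrial protein of piRNA biogenesis, had 34 and 28 counts in the controls and 2 and 0 in KO-F1, and the helicase gene Ddx25 had 247 and 37 against 60 and 41. Gm1564, the files' symbol for Meioc, had 43 and 9 counts against 0 and 1. Of 12 other spermatogonial genes 5 were tested, 2 were lower, and the median was 0.51. Taf4b, a germ cell transcription factor subunit in that list, had 1 and 0 counts in the controls and 14 and 15 in KO-F1. Pld6 and Gm1564 passed the filter through Ctrl-F1 only, a route by which 95.7% of genes were lower. Other lower genes of the meiotic and piRNA lists took that route too, so part of these counts follows from the filter. Taf4b passed through KO-F1 only, where 13.2% of genes were lower. None of these lists had a gene called.

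For reference, the late spermatid genes Prm1, Tnp1, Odf1, Akap4 and Smcp were at -2.10, -2.17, -1.66, -1.97 and -1.19. Of the 50, 44 had an unadjusted p under 0.05, 48 did not overlap and 0 were called. Against the late spermatid median, 7 of the 22 earlier genes were lower and 15 were higher, and under scaling to the late spermatid list their median became 0.34. That scaling also moved the median of all genes to 1.77, and library totals alone moved it to 0.46. Relative to the median of all genes, the 22 genes were at -1.43 under TMM, library totals and late spermatid scaling alike, and the late spermatid genes at -1.80. A change of scaling shifts every gene by nearly the same amount, so these distances had to stay nearly unchanged.

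**Figure D2:**
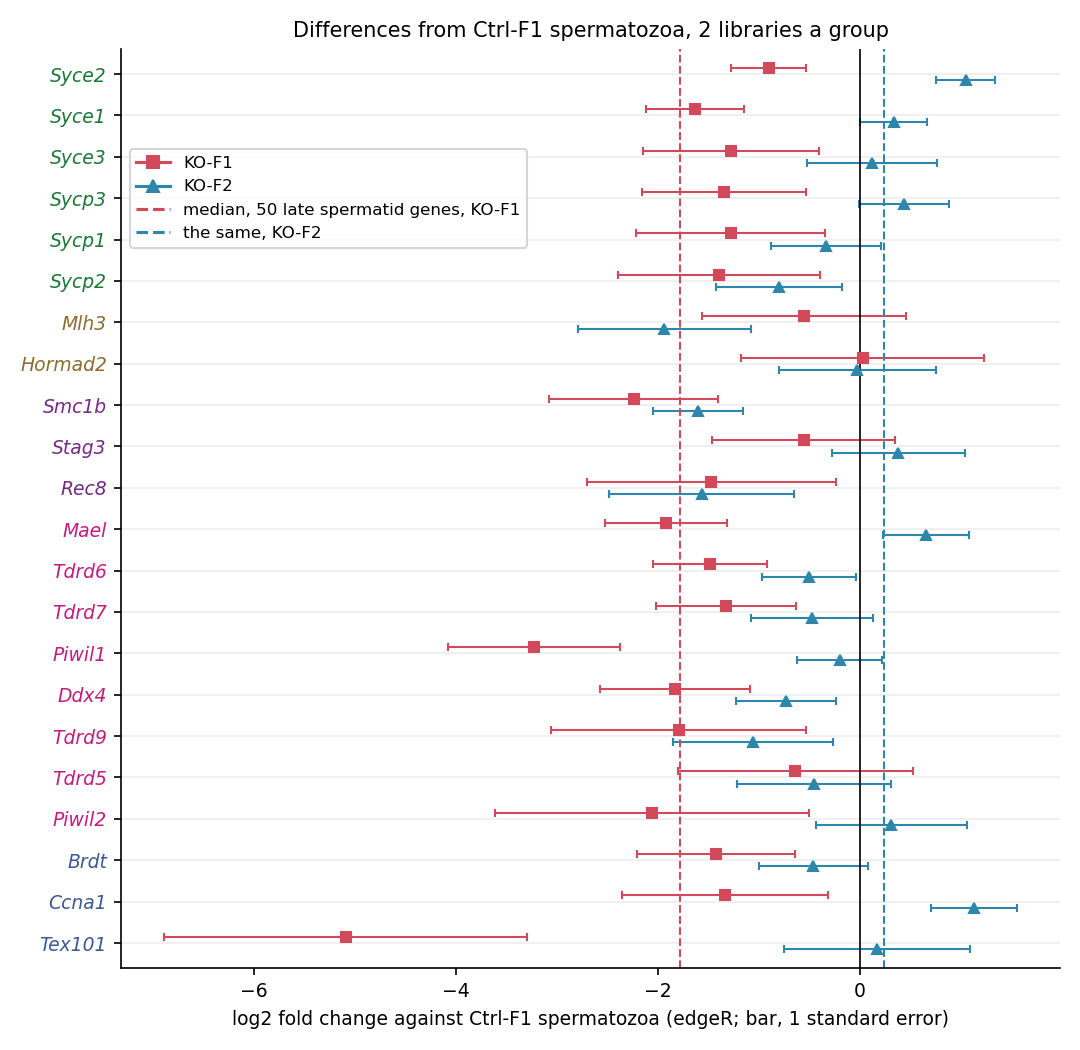
Log2 fold change against Ctrl-F1 spermatozoa under TMM scaling for the same 22 genes in KO-F1 (squares) and KO-F2 (triangles), with bars of 1 standard error from edgeR and 2 libraries a group. Dashed lines mark the late spermatid medians of -1.78 and 0.24; the KO-F1 median of the 22 genes is -1.41, or 0.34 under scaling to the late spermatid list.

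Summed raw counts were set against each library's total, so these shares also move with library composition. The 39 genes took 0.121% and 0.0831% of all counts in the Ctrl-F1 libraries, 0.0594% and 0.0598% in those of KO-F1 and 0.179% and 0.163% in those of KO-F2. The late spermatid genes took 15.8% and 13.7%, 6.77% and 5.30%, and 18.4% and 18.1% in the same order. Both shares were lowest in KO-F1 and highest in KO-F2, with no overlap between groups. Without Syce2 the other 38 genes took 0.0688% and 0.0381% for Ctrl-F1, 0.0219% and 0.0269% for KO-F1 and 0.0676% and 0.0504% for KO-F2, so KO-F1 stayed lowest and KO-F2 lay inside the range of Ctrl-F1. With 2 against 2 libraries an exact two-sided permutation test cannot go below p = 0.333, so no test of these sums was run.

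The ratio of both sums needs no scaling between libraries. Per 1000 late spermatid counts there were 7.65 and 6.06 counts of the 39 genes for the Ctrl-F1 libraries, 8.78 and 11.3 for KO-F1 and 9.71 and 8.99 for KO-F2. Ctrl-F1 was thus lowest, by 0.55 on the log2 scale against KO-F1. This ordering rested on Syce2 and Prm2, the most abundant gene of each list. Without them the ratios were 6.12 and 3.41 for Ctrl-F1, 3.86 and 6.03 for KO-F1 and 4.98 and 3.56 for KO-F2, which overlapped in every pair of groups.

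**Figure D3:**
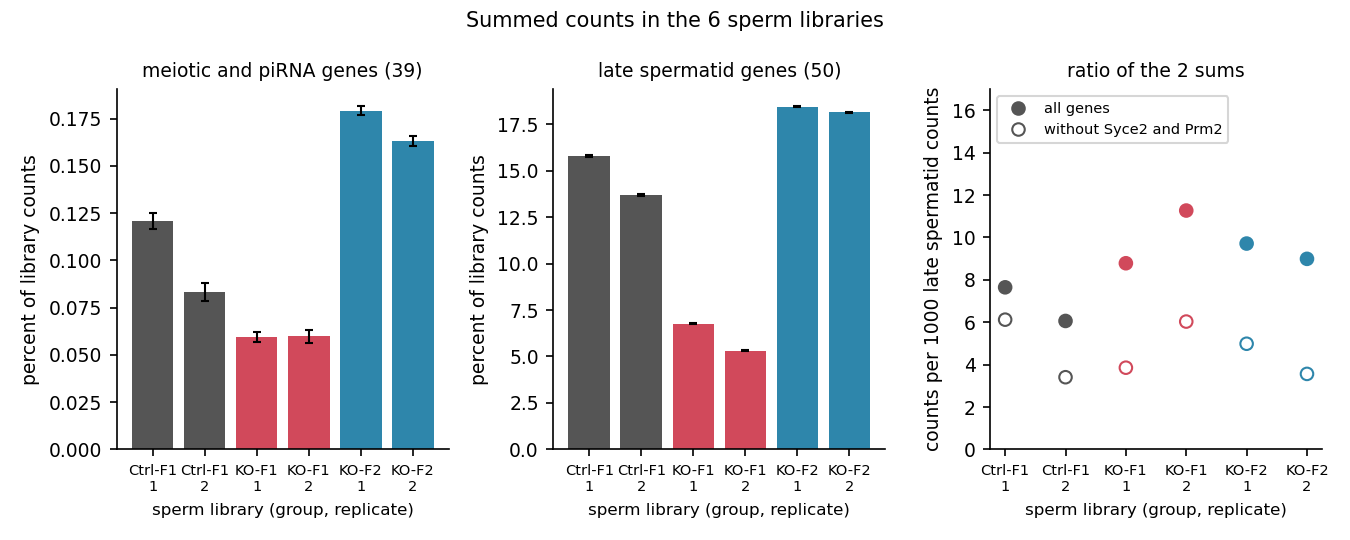
Summed counts of the 39 meiotic and piRNA genes (left) and the 50 late spermatid genes (middle) as percent of each sperm library, with Wilson 95% intervals for counting error, and the ratio of both sums (right), with open circles leaving out Syce2 and Prm2. Both shares are lowest in KO-F1, at 0.0594% and 0.0598% and at 6.77% and 5.30%; the open circles of the 3 groups overlap.

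Markers of other cells differed between these libraries too. The 21 epididymal epithelium markers summed to 7745 and 22642 CPM for Ctrl-F1, 15671 and 16245 for KO-F1 and 1824 and 3893 for KO-F2. None of the 21 was at 0 in every sperm library. Ctrl-F1 spanned KO-F1 in this sum, of which Crisp1 took 58.9% to 80.6%. Without Crisp1 the other 20 summed to 2296 and 4387 CPM for Ctrl-F1, 4701 and 6445 for KO-F1 and 564 and 1037 for KO-F2. Both KO-F1 libraries were then above both controls. The 12 leukocyte markers summed to 3020 to 6941, 12563 to 30972 and 6281 to 6755 CPM in the same order. Cd52 alone stood at 30705 and 12135 CPM in the KO-F1 libraries, above both controls, which had 6718 and 2387. The KO-F2 libraries had 3030 and 1411 CPM of Cd52. The source of these Cd52 transcripts was not tested. Without Cd52 the other 11 leukocyte markers summed to 223 to 633 CPM for the controls, which spanned the 267 to 428 of KO-F1, and to 3726 to 4870 for KO-F2. The 11 testis somatic markers summed to 0 to 7.00 CPM in Ctrl-F1, 47.0 to 54.7 in KO-F1, nearly all of it Sox9, and 17.1 to 29.5 in KO-F2. Of these 11, Cldn11, Insl3 and Hsd3b1, which mark Sertoli and Leydig cells, were at 0 in every sperm library, but others were not. The Sertoli marker Sox9 took 97.4% and 88.8% of the sum in KO-F1 and 53.0% in KO-F2 replicate 2. The Leydig marker Cyp11a1 took 54.6% in KO-F2 replicate 1. The part of these cells in the results was not tested.

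In KO-F2 spermatozoa the genes were spread on both sides of Ctrl-F1. Of 30 tested, 12 were higher and 18 lower, against 53% and 47% of all 13149 genes, and the median was -0.27, against 0.24 for late spermatid genes and 0.07 for all genes. None of the 30 was called, nor was any gene (0%); 1960 genes had an unadjusted p under 0.05, and DESeq2 called 277 genes (1.48%), none of the list. Unadjusted p was under 0.05 for 2 higher genes, against 9.07% of all genes, and for 1 lower gene, against 5.83%. Groups did not overlap for 6 higher and 7 lower genes, against 28.5% and 19.5% of all genes. One library decided the sign for 16 of the 30, and without Ctrl-F1 replicate 1 the median was 0.39. This comparison shares its controls with the KO-F1 comparison, so both sets of differences move with the same Ctrl-F1 values.

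Syce2 had 12786 and 9449 counts in KO-F2, or 1129 and 1145 normalized CPM, above the 544 and 568 of Ctrl-F1, at 1.05 (SE 0.29, unadjusted p = 0.0113, adjusted p = 0.217, edgeR). With the replicate number as a block it was called, among 362 genes, and was the only gene of the list that was. Ccna1 was also higher, at 35.9 and 31.9 normalized CPM against 16.8 and 14.3, a difference of 1.13 (SE 0.43, unadjusted p = 0.0381, adjusted p = 0.300, edgeR). Smc1b was lower, at 10.2 and 11.8 normalized CPM against 37.1 and 30.3, a difference of -1.61 (SE 0.45, unadjusted p = 0.0112, adjusted p = 0.217, edgeR).

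By role, the medians in KO-F2 were 0.23 for 6 synaptonemal complex genes, -0.45 for 11 piRNA pathway genes, -0.63 for 6 recombination genes and -1.57 for 3 cohesins. Sycp3, Syce1, Spo11 and Asz1 joined Syce2 and Ccna1 above both controls. Sycp2, Hormad1, Mlh3, Rec8, Ddx4 and Mov10l1 joined Smc1b below both. Of these, Spo11 and Asz1 passed the filter through the KO-F2 libraries only, a route by which 19.7% of genes were lower, and Hormad1 through Ctrl-F1 only, where 98.8% were. Of the other piRNA genes 12 were tested and 9 were higher, with a median of 0.60. Gtsf1, a piRNA cofactor, had 14 and 3 counts in the controls and 395 and 235 in KO-F2, at 2.81 (adjusted p = 0.179, edgeR). Gpat2, a mitochondrial protein of the pathway, had 1 and 0 counts in the controls and 63 and 41 in KO-F2, and Tdrkh had 2 and 0 against 46 and 47. Taf4b had 1 and 0 against 30 and 50. Gpat2, Tdrkh and Taf4b passed the filter through KO-F2 only, and their Ctrl-F1 counts are too few to give a size.

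Set directly against KO-F1, 27 of the 29 genes tested were higher in KO-F2 spermatozoa under TMM scaling, and 23 were lower under scaling to the late spermatid list. With TMM 53.1% of all 13517 genes were higher, and the median was 1.14 for the 29 genes, 2.31 for late spermatid genes and 0.13 for all genes. With late spermatid scaling the medians were -1.09 for the 29 genes and -2.11 for all genes. Relative to the median of all genes the 29 were between 1.01 and 1.02 under each scaling, which follows from a shift common to all genes. None of the 29 was called, against 2.31% of all genes. DESeq2 called 6 of them (Syce1, Syce2, Tex101, Piwil1, Mael and Ccna1), against 11% of all genes. The adjusted p was under 0.05 for 8, against 20.4%, and the unadjusted p for 11 higher genes, against 22.4%. The groups did not overlap, with KO-F2 higher, for 19, against 33.9%. Of the late spermatid genes 49 of 50 were higher and 11 were called.

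**Figure D4:**
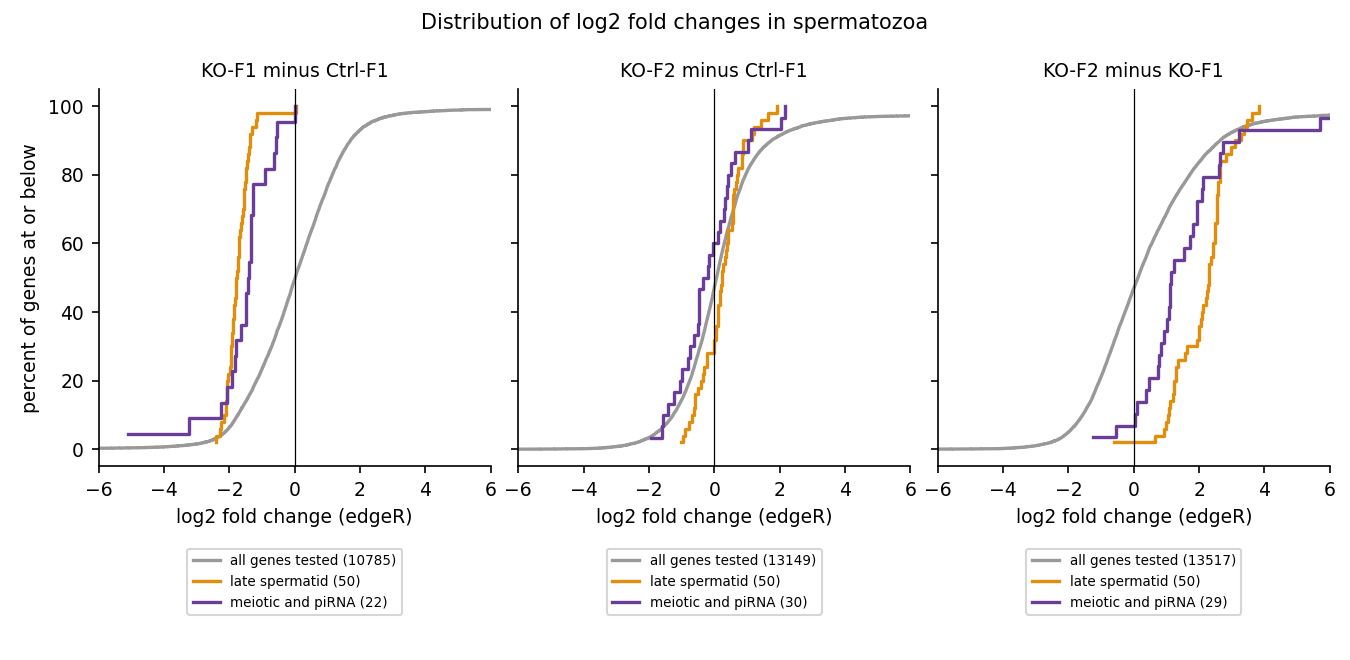
Cumulative distributions of edgeR log2 fold changes (x axis, TMM scaling; y axis, percent of genes at or below) in the 3 sperm comparisons for all genes tested, late spermatid genes and meiotic and piRNA genes. The medians of the meiotic and piRNA genes are -1.41, -0.27 and 1.14 from left to right, or 0.34, -0.59 and -1.09 under scaling to the late spermatid list; Asz1, with no count in KO-F1, lies outside the axis on the right.

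Among these, Syce2 was at 2.09 (SE 0.32, adjusted p = 0.0106, edgeR) and Syce1, at 103 and 74.3 normalized CPM in KO-F2 against 25.9 and 20.9, was at 2.11 (SE 0.37, adjusted p = 0.0129, edgeR). Mael, at 179 and 123 normalized CPM against 15.5 and 36.3, was at 2.73 (SE 0.50, adjusted p = 0.0145, edgeR). Piwil1, at 32.5 and 22.2 against 1.79 and 5.12, was at 3.21 (SE 0.65, adjusted p = 0.0193, edgeR). In each of these 4 genes both KO-F2 libraries were above both KO-F1 libraries. Sycp3 was at 1.93 (adjusted p = 0.0291, edgeR) and Ccna1 at 2.65 (adjusted p = 0.0304, edgeR), likewise without overlap.

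Tex101 and Asz1, a germ cell protein of the mitochondria-associated piRNA machinery, passed the filter through KO-F2 only, as did Piwil2, Tdrd1, Tdrd9, Mov10l1 and Spo11. By that route only 8.84% of genes were lower. Tex101 had 169 and 28 counts in KO-F2 against 0 and 1 (adjusted p = 0.0376, edgeR). Asz1 had 55 and 19 against 0 and 0, at least 2.81-fold higher against a floor of 3 counts per library (adjusted p = 0.0424, edgeR). Syce3 was at 1.54 and Tdrd6 at 1.14, with adjusted p = 0.0683 and 0.0687 (edgeR). Piwil2 was at 2.60 (adjusted p = 0.133, edgeR). Of the 19 genes over the count minimum in every library, 18 were higher with a median of 1.12. Among all genes of that kind 4735 of 9874 were higher, with a median of -0.07. Mlh3, at 3.18 and 3.15 normalized CPM in KO-F2 against 10.7 and 6.40, was lower without overlap, at -1.25 (SE 0.74, adjusted p = 0.267, edgeR), and Msh5 was at -0.54. Of the other piRNA genes Ddx25 was called, with 60 and 41 counts in KO-F1 and 1290 and 709 in KO-F2, at 2.68 (adjusted p = 0.00949, edgeR). Gtsf1, with 4 and 0 counts in KO-F1 and 395 and 235 in KO-F2, passed the filter through KO-F2 only and was called too (adjusted p = 0.00982, edgeR).

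In liver, 21 of the 39 genes had no count in any of the 4 libraries, Piwil1, Mael, Ddx4, Tdrd6 and Tex101 among them, and 8 had enough to test. They were Tdrd7, which is expressed outside the germline too, with 290 to 432 counts, Mlh3 and Meiob with 90 to 113 and 61 to 134, and Syce2, Sycp3, Rec8, Zbtb16 and Brdt with 20 to 101. The median KO-F1 minus Ctrl-F1 log2 fold change was 0.37, and 7 of 8 were higher and 1 lower, against 49.4% and 50.6% of all 11505 genes. In edgeR 0 of the 8 had an unadjusted p under 0.05, against 3.99% of all genes with higher and 5.42% with lower levels, or 1083 genes. None was called, against 0% of all genes, and the adjusted p was under 0.05 for 0.00869% of all genes. The largest differences were Rec8 at 0.94 (SE 0.52, adjusted p = 0.596, edgeR) and Sycp3 at 0.82 (SE 0.46, adjusted p = 0.600, edgeR). Groups did not overlap, with KO-F1 higher, for Sycp3, Meiob and Brdt, 3 of the 8, against 20.1% of all genes. Sycp3 and Meiob share exonic bases with Chpt1 and Hagh, which have their own transcripts. One library decided the sign for Syce2, Mlh3, Tdrd7 and Zbtb16.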

How the data were processed

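RNA-seq counts per gene of 10 mouse libraries were analysed (6 of spermatozoa and 4 of liver, 2 biological replicates per group). ChIP-seq and embryo samples were not used here. As deposited, the authors' counts came from single-end reads aligned to GRCm38/mm10 with HISAT2 2.1.0 and counted as unique reads with featureCounts (Subread). Its version, annotation and strand setting are not given in the sources used here. Of 23420 lines, 4 lines of 2 repeated symbols were left out. The genes listed, and the other lists, were chosen with earlier results of these data known. Groups were taken from the sample labels. Each p-value sets a difference against a spread estimated from 2 libraries a group, an estimate partly shared across genes.

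Each comparison was fitted on its own over all genes with edgeR 4.0.16 in R 4.3.3 (quasi-likelihood F test, TMM, filterByExpr with a minimum count of 10 and total of 15), and adjusted by Benjamini-Hochberg over all genes tested. A call needed a fold change of 2 and an adjusted p under 0.01, following the study's thresholds. Fold changes are log2, levels are TMM-normalized CPM, and shares have Wilson 95% intervals. A floor is 3 counts. Values per sample are given for the most abundant genes of the list and for those with an unadjusted p under 0.05 or called under any setting. At most 5 genes per comparison are named from the other meiotic, piRNA and spermatogonial lists, by smallest p among those without overlap, and Prm1, Tnp1, Odf1, Akap4 and Smcp serve as reference. The marker lists of epididymal epithelium, leukocytes, testis somatic cells and hepatocytes were summed as CPM of library totals.

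Alternatives were DESeq2 1.42.0 (the authors used 1.16.1), its size factors, library totals alone, scaling to the late spermatid list, no filter, at least 10 counts in every library, counts thinned to the smallest library, Rn45s and Lars2 left out, all sperm groups in 1 model, a replicate block, and each library left out. The fits were run on simulated counts with planted changes, where the check required the right direction for most of them and set no condition on calls. The replicate numbers name different animals, and deviations of same-numbered libraries correlated at -0.01, 0.16 and 0.06 in the sperm comparisons and -0.16 in liver, so the numbers were not taken to pair samples.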

Additional observations from a re-analysis of the deposited data

Results flagged for a closer look

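In 4 genes the KO-F1 and KO-F2 differences from Ctrl-F1 spermatozoa lay on opposite sides, with both KO-F1 libraries below both controls and both KO-F2 libraries above them. KO-F2 above KO-F1 follows from that choice of genes, so their differences are given as a description. The KO-F2 minus KO-F1 log2 difference was 1.93 for Sycp3 (SE 0.46), 2.11 for Syce1 (SE 0.37), 2.09 for Syce2 (SE 0.32) and 2.65 for Ccna1 (SE 0.64). Under scaling to the late spermatid list Sycp3, Syce1 and Syce2 were at -0.30, -0.17 and -0.15, and Ccna1 was at 0.45. Generation, mode of conception, run, depth and background label cannot be told apart in this comparison.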

How the results depend on the processing

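With 2 libraries a group, a call depends on how the spread is estimated. Against Ctrl-F1, genes called in KO-F1 spermatozoa numbered 0 with edgeR, 390 with DESeq2, 113 without a filter and 200 with at least 10 counts in every library, and under each setting run 0 genes of the list were called. In KO-F2 against Ctrl-F1 the number was 0 with edgeR, 277 with DESeq2, 39 without a filter, 1 with at least 10 counts and 2 with all sperm groups in 1 model. In KO-F2 against KO-F1 it was 312 with edgeR, 2059 with DESeq2, 0 with library totals alone, 2552 without a filter, 1805 with at least 10 counts, 654 after thinning, 198 with all sperm groups, 4815 under late spermatid scaling and 536 without Rn45s and Lars2. Genes of the list called there were 6 with DESeq2, 7 without a filter, 4 with at least 10 counts, 2 after thinning, 1 under late spermatid scaling (Mlh3) and 1 without Rn45s and Lars2 (Syce2). In liver it was 0 with edgeR, 20 with DESeq2, 25 without a filter and 1 with at least 10 counts, and the list's median without a filter was 0.13. The cause of these differences was not tested.

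With a replicate block, genes called were 0 in KO-F1 spermatozoa, 362 in KO-F2 against Ctrl-F1 (1 of the list, Syce2), 819 in KO-F2 against KO-F1 (3 of the list, Syce1, Syce2 and Mael) and 2 in liver, and the KO-F2 against Ctrl-F1 median lay -0.41 from the late spermatid median. The numbers crossed in liver, chosen after seeing the data, gave 0 calls.

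With library totals alone the medians of the listed and the late spermatid genes were -0.98 and -1.34 in KO-F1 against Ctrl-F1 and 0.72 and 1.89 in KO-F2 against KO-F1. Under late spermatid scaling, which sets that list near 0 by construction, they were 0.34 and -0.0397 in KO-F1 against Ctrl-F1, -0.59 and -0.0203 in KO-F2 against Ctrl-F1, and -1.09 and 0.0682 in KO-F2 against KO-F1. Directions turned there for 14 of 22 genes of the list in KO-F1 against Ctrl-F1, among them Syce1 (0.14), Syce2 (0.84) and Tdrd6 (0.33), for 2 of 30 in KO-F2 against Ctrl-F1 (Syce3 and Tex101), and for 21 of 29 in KO-F2 against KO-F1, among them Sycp3 (-0.30), Syce1 (-0.17), Syce2 (-0.15), Syce3 (-0.73) and Tdrd6 (-1.12) in KO-F2 against KO-F1. The late spermatid median of KO-F2 against KO-F1 was 2.51 with at least 10 counts and 2.13 with all sperm groups. The distance of the listed genes from it was -1.18 with edgeR, -0.92 without a filter and -0.93 with all sperm groups. In KO-F2 against Ctrl-F1 that distance was -0.51 with edgeR, -0.40 with DESeq2, -0.42 without a filter, -0.61 with at least 10 counts, -0.29 after thinning and -0.57 under late spermatid scaling. Counts per 1000 late spermatid counts differed from Ctrl-F1 by 0.55 in KO-F1 and 0.45 in KO-F2 (log2), and by 0.0534 and -0.16 without Syce2 and Prm2.

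Leaving out each library in turn, assuming that a lone library varies like the others, moved the list's median from -1.77 to -1.17 in KO-F1 against Ctrl-F1, from -0.59 to 0.39 in KO-F2 against Ctrl-F1, from 0.99 to 1.95 in KO-F2 against KO-F1 and from 0.0563 to 0.53 in liver. Its distance from the late spermatid median ran from 0.13 to 0.43, from -0.71 to -0.21 and from -1.18 to -0.41 in the sperm comparisons. The late spermatid median ran from 0.0327 to 0.59 in KO-F2 against Ctrl-F1 and from 2.102 to 2.45 in KO-F2 against KO-F1. Genes called ran from 35 to 277 in KO-F2 against Ctrl-F1, from 230 to 2898 in KO-F2 against KO-F1 and from 4 to 107 in liver. In KO-F2 against KO-F1 0 to 7 genes of the list were called, 7 without KO-F1 replicate 2. The log2 ratio per 1000 late spermatid counts ran from 0.29 to 0.63 in KO-F2 against Ctrl-F1 and from -0.27 to 0.0905 in KO-F2 against KO-F1. At F1 depth 17 of the 39 genes could not be tested.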
